A study of Mus musculus with 24 samples.

Results

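Cd68, Adgre1, Csf1r, Mrc1, Cd163, Lyz2, Cd14, C1qa, C1qb and C1qc, 10 genes that mark macrophages or make the complement protein C1q, were followed in the aortas of 24 mice. They were taken by symbol from a table of 41128 genes, which lists Adgre1 under its older name Emr1. All 10 were found and all 10 passed the filter on low counts that kept 16316 genes. Total RNA was sequenced from 1 aorta per library, to ask how loss of Ppp3cb, the beta catalytic subunit of the phosphatase calcineurin, alters the response to angiotensin II (AngII), a peptide that raises blood pressure.

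Mice were 5 months old and of 4 kinds, with 3 females and 3 males in each: knockout (KO) with AngII, KO control, wildtype (WT) with AngII, and WT control. Over 4 weeks the treated mice received 500 ng of AngII per kg of body weight each minute from an implanted osmotic pump. Whether the controls had a pump of any kind is not stated. The stock is B6,129S6-Ppp3cbtm1Jmk/J, and no Cre or tissue-specific promoter is named. Libraries are named below by genotype, treatment, sex and replicate number. A whole aorta also holds smooth muscle, fibroblasts, endothelium and fat cells, and fewer macrophages and less RNA per macrophage cannot be told apart in such a sample.

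Macrophages sit mainly in the outer layer of the aorta, where they clear debris and take part in inflammation and remodelling. Most depend on signals through Csf1r, the receptor for the growth factor Csf1. Macrophages are also a main source of C1q, which is built from A, B and C chains and starts the classical complement pathway when it binds antibody complexes or dying cells. AngII given to rodents is known to bring monocytes and macrophages into the arterial wall.

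The stretch of 250 bases before the RefSeq start was available for 6 of the genes (C1qb, C1qc, Cd163, Cd68, Lyz2 and Mrc1; build GRCm38.p6). Shown are Cd68, the gene with the clearest separation of groups, C1qb, the C1q chain with the most counts, and Cd163, which did not follow the other genes in the library where most of them peaked. Capitals mark matches to GAGGAA or its reverse TTCCTC, a core of the site of the myeloid factor PU.1, or to TGANTCA, the AP-1 motif, which reads the same on both strands. Each runs 5′ to 3′ on the strand of its gene.
Cd68, chr11:69666171-69666420, minus strand: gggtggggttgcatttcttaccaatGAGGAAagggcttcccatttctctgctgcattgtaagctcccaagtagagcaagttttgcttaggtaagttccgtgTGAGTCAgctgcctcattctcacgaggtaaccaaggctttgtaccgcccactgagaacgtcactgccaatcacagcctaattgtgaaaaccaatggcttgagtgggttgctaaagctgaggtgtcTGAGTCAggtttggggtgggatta
C1qb, chr4:136886201-136886450, minus strand: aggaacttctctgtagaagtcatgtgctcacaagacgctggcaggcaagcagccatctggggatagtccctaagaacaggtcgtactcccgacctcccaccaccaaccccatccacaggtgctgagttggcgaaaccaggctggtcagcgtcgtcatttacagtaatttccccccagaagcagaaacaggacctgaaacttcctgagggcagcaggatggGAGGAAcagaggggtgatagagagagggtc
Cd163, chr6:124304401-124304650, plus strand: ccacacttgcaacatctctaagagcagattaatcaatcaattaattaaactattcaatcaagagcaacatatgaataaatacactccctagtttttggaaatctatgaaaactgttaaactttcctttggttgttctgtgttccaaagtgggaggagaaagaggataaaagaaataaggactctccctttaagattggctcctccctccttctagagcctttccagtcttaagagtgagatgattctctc
The PU.1 core was present in 4 of the 6 windows, and in 23.3% of 32851 windows of this length over all genes. In Cd68 it began 225 bases before the start and in C1qb 30 bases before it. C1qc had a match at 193 bases and Mrc1 had 3, at 180, 167 and 35 bases. The AP-1 motif was found in Cd68 alone among the 6, at 149 and 24 bases, and in 6.75% of all windows. These are matches of letters and were not tested as sites.

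Libraries held 1523328 to 6352365 counts (median 3835993), of which the 10 genes together took 238 to 2391, so many values below rest on few counts. The targeted gene, Ppp3cb, averaged 21.3 ± 6.11 CPM in KO aortas and 41.9 ± 10.8 CPM in WT aortas (SD, n = 12 each; CPM, counts scaled to a common library size). Its change was -1.01 ± 0.16 log2 (SE; edgeR, adjusted p = 0.000177), and 10 of the 12 KO libraries lay below every WT library. Which part of Ppp3cb the allele lacks is not stated, so what the counts left in KO aortas stand for is not known. All genes listed on chromosomes 9, X, Y and MT had 0 counts, so the sexes could not be checked, and so did the last 531 of the 1749 genes listed on chromosome 8. All 16 genes of the lists below that had 0 counts lie there, among them Ccr2, Il34, Xcr1, Cdh5, Cd3e, Cd3d and Cd3g, and their 0 is a gap of the table and no measure of a level. KO control females stood high in olfactory and vomeronasal receptor genes, which held 1002 to 1992 CPM of protein-coding counts there and 111.4 to 1073 CPM in the other 7 groups. The ranges overlap at KO AngII females, which had 431.7 to 1073 CPM, against 203.3 to 345.8 CPM in WT AngII females. The part of these reads in the KO against WT values of AngII females was not tested. KO control females also had 1523328 to 2401264 counts, against 2510551 to 4205881 in WT control females, and 2.51% to 13.3% of counts on rRNA, snRNA and miscellaneous RNA genes, against 17.8% to 22.9%.

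A single library was the highest of all 24 for 8 of the 10 genes. This was KO control male replicate 2, where the 10 genes summed to 545.6 CPM, against a median of 137.65 CPM over the 24 libraries. Its C1qa level was 8.91 times the median of the other 23 libraries, C1qc 7.83 times, C1qb 6.2 times and Lyz2 5.44 times. Csf1r stood at 4.0 times that median, Cd68 at 3.17 times and Mrc1 at 2.25 times. The scavenger receptor Cd163 was the exception, at 0.94 times the median and 14th in rank, and Adgre1 was second. The library ranked 8th in total counts, and its receptor genes stood at 380.5 CPM of protein-coding counts. Against the other KO controls its excess was not limited to macrophage genes. Lysosomal genes summed to 1562 CPM (up to 1190 in the others) and other classical complement genes to 2949 CPM (up to 1338). Fibroblast markers summed to 5303 CPM there, against up to 3730 CPM in the other KO controls. That sum lay inside the range of KO AngII (3974 to 5598 CPM) and WT AngII aortas (4258 to 9620 CPM), and 0 of the 10 fibroblast markers peaked in this library. The part of these differences in the values of the 10 genes was not tested. Results that rest on control KO mice are therefore also given without this library, from a fit of the other 23 libraries, where the filter kept 18297 genes.

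**Figure D1:**
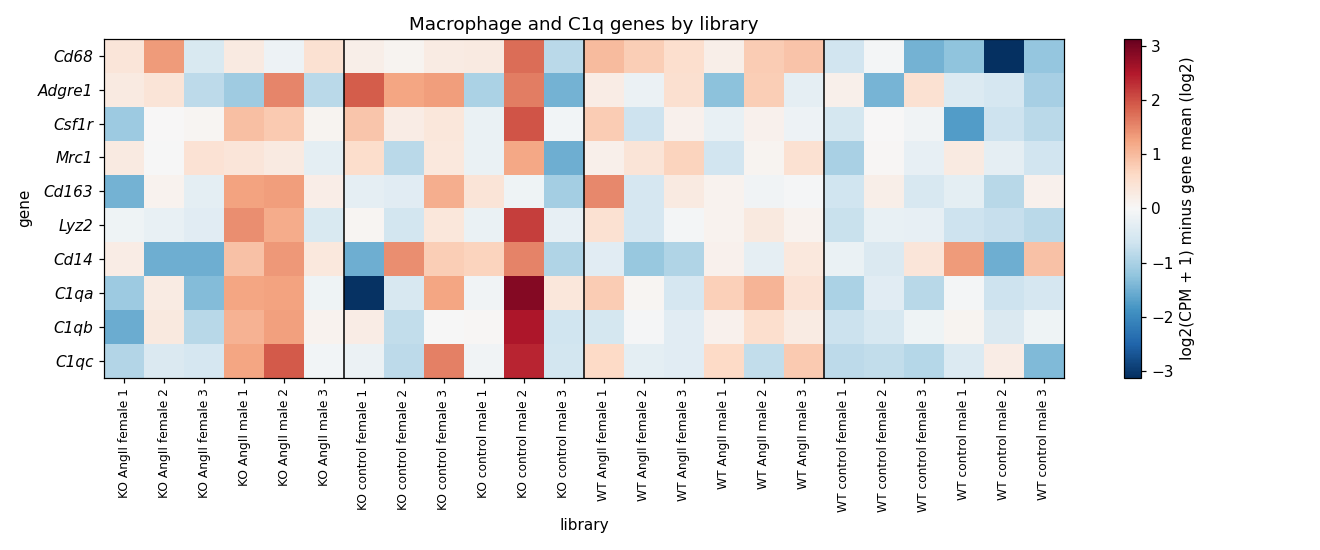
Each cell is the log2(CPM + 1) of a gene (rows) in a library (columns) minus the mean of that gene over the 24 libraries, on the log2 scale of the colour bar; black lines separate KO AngII, KO control, WT AngII and WT control. The column of KO control male replicate 2 is the highest for 8 of the 10 genes.

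Per kb of exon, Lyz2 was the most abundant of the 10, at 28.4 ± 21.8 CPM per kb over all 24 libraries (SD, n = 24). C1qb followed at 15.3 ± 14.3, C1qa at 10.3 ± 11.6 and Cd68 at 7.68 ± 5.07 CPM per kb. Cd163 (4.73 ± 2.81), Mrc1 (4.6 ± 1.86), C1qc (4.12 ± 4.19) and Csf1r (4.05 ± 2.64 CPM per kb) formed a middle group, and Adgre1 (2.40 ± 2.01) and Cd14 (1.49 ± 1.34 CPM per kb) came last. Neighbours in this order lay within 1 SD of one another, except that Cd68 exceeded Cd163 by more than the SD of Cd163. In WT control aortas Lyz2 was again first, at 16.4 ± 3.12 CPM per kb (SD, n = 6), and Adgre1 last, at 1.38 ± 0.81 CPM per kb. Only 6 of the 240 values were 0: 4 of Cd14, 1 of Cd68 and 1 of C1qa.

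Cd68, a glycoprotein of macrophage lysosomes (ENSMUSG00000018774, chromosome 11, 69664213 to 69666153, minus strand, mm10), separated WT mice by treatment. It stood at 16.3, 13.7 and 11.6 CPM in WT AngII females and at 4.76, 7.39 and 2.13 CPM in WT control females. In males it stood at 8.90, 14 and 15.2 CPM with AngII and at 2.66, 0 and 2.79 CPM in WT controls. Every WT AngII library lay above every WT control library, which held for 0.386% of the 16316 genes. The 0 came from WT control male replicate 2, where a count of 0 allows a level of up to 0.707 CPM (3 counts). The change with AngII in WT was 2.16 ± 0.51 log2 (edgeR, unadjusted p = 0.000187, adjusted p = 0.0679), just outside the threshold of 0.05. DESeq2 called it at 2.14 (adjusted p = 0.00601). It was also called without KO control female replicate 1 (2.16, edgeR adjusted p = 0.0416) or without KO control male replicate 3 (2.15, edgeR adjusted p = 0.0457). Those libraries are not in this comparison. Leaving 1 out alters the shared estimate of spread, and also the filter, the scaling and the set of genes adjusted over.

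KO aortas held Cd68 at 10.3, 21.0 and 5.25 CPM in AngII females and at 9.54, 6.78 and 11.1 CPM in AngII males. KO control females had 8.91, 8.28 and 9.42 CPM, and KO control males 9.52, 28.3 and 3.89 CPM. The KO groups overlapped throughout, and the change with AngII in KO was -0.08 ± 0.48 log2. Against WT controls, 5 of the 6 KO control libraries were above every WT control library, with a change of 1.90 ± 0.52 log2 (edgeR, unadjusted p = 0.000834, adjusted p = 0.119). Without KO control male replicate 2 that change was 1.31 (edgeR, unadjusted p = 0.0158, adjusted p = 0.469). Among AngII mice the difference of KO from WT was -0.33 ± 0.47 log2.

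Csf1r, the Csf1 receptor that macrophages need to survive (ENSMUSG00000024621, chromosome 18), lay between 8.71 and 39.6 CPM in KO AngII aortas (median 21.2) and between 17.3 and 81.2 CPM in KO controls (median 24.9). WT AngII aortas ran between 12.4 and 35.5 CPM (median 20.1) and WT controls between 5.32 and 20.4 CPM (median 13). Thus 4 of the 6 KO controls exceeded every WT control, and the AngII groups of both genotypes covered much the same range. The change of KO from WT in controls was 1.37 ± 0.35 log2 (edgeR, unadjusted p = 0.000391, adjusted p = 0.0861). It was 0.76 without KO control male replicate 2 (edgeR, unadjusted p = 0.0194, adjusted p = 0.496), the library at 81.2 CPM. It passed in DESeq2 (1.45, adjusted p = 0.0168) and in edgeR without KO control female replicate 2 (1.38, adjusted p = 0.0368) or without KO control male replicate 3 (1.51, adjusted p = 0.0419). Those fits kept KO control male replicate 2, and limma-voom did not call Csf1r. AngII changed Csf1r by 0.70 ± 0.34 log2 in WT (edgeR, unadjusted p = 0.0483, adjusted p = 0.743) and by -0.54 ± 0.34 log2 in KO, neither of them called. Hmgxb3 overlaps Csf1r on the opposite strand and held 1493 counts against 2055 for Csf1r; whether counting used strand is not given in the sources used here, so a share of reads could belong to either.

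Adgre1, which encodes the F4/80 antigen of mouse macrophages (ENSMUSG00000004730, chromosome 17, 57358691 to 57483527, plus strand), was highest in KO control females, at 24.2, 15.1 and 16.1 CPM. KO control males had 2.44, 19.9 and 1.46 CPM. WT control females had 6.59, 1.52 and 8.51 CPM, and WT control males 4.14, 3.77 and 2.33 CPM. All 3 KO control females lay above all 3 WT control females, which held for 9.33% of genes in that pair of groups, and among males only replicate 2 lay above the WT controls. The change of KO from WT was 1.75 ± 0.84 log2 in control females (edgeR, unadjusted p = 0.0467, adjusted p = 0.309) and 1.22 ± 0.84 log2 in control males. The fit without KO control male replicate 2 gave 1.65 log2 in females and -0.81 log2 in males. These females are the group given above with high receptor-gene reads, low total counts and a low share of rRNA, snRNA and miscellaneous RNA, and the part of these in the Adgre1 values was not tested. KO AngII libraries lay at 2.2 to 18.9 CPM (median 5.15) and WT AngII libraries at 1.84 to 10.7 CPM (median 6.04), which overlap.

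**Figure D2:**
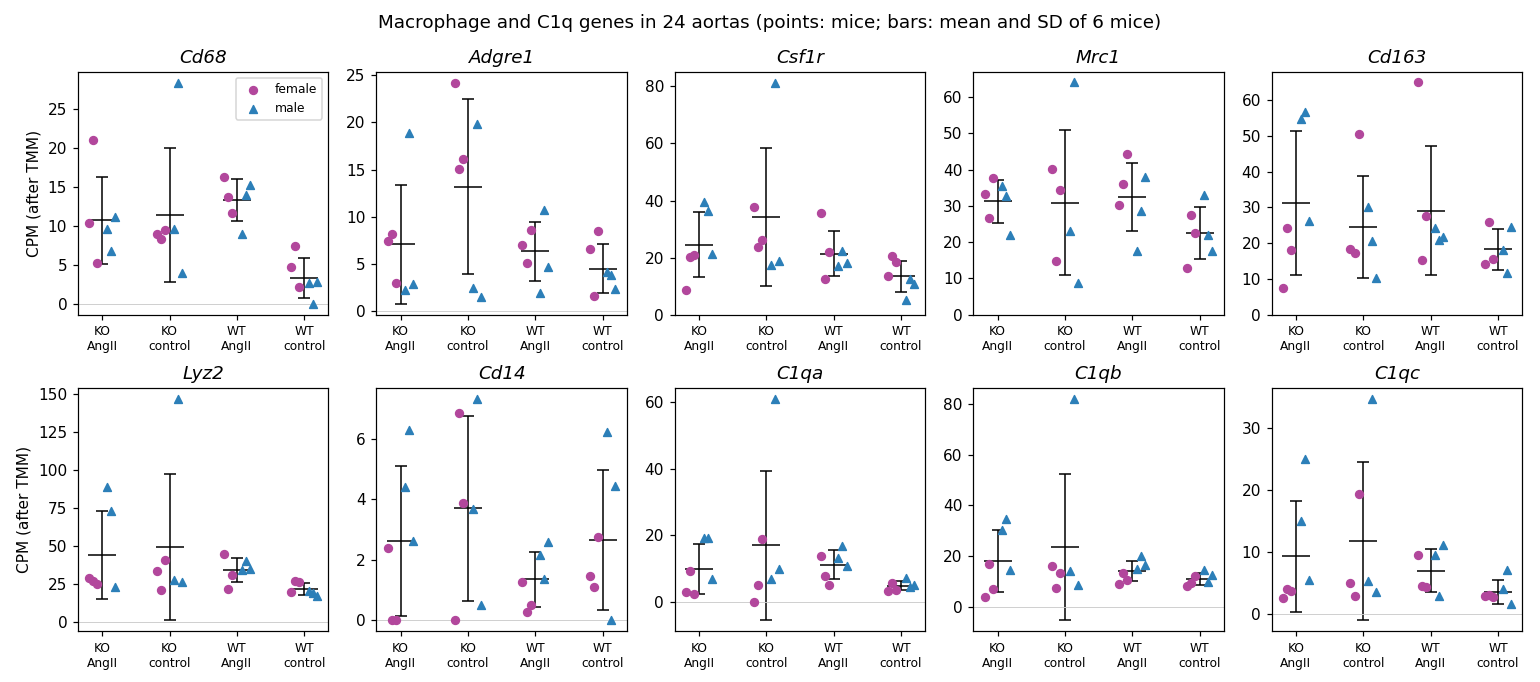
Points are the CPM of a gene in each of 24 mice (circles female, triangles male), and bars the mean and SD of the 6 mice of each genotype and treatment; each panel has its own linear axis. Cd68 in WT AngII (8.90 to 16.3 CPM) lies above WT control (0 to 7.39 CPM) with no overlap, and KO control male replicate 2 is the top point of its group in 8 of 10 panels.

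The mannose receptor Mrc1 and the haemoglobin-haptoglobin receptor Cd163 mark tissue-resident macrophages of the artery. Mrc1 (ENSMUSG00000026712, chromosome 2, 14229392 to 14332057, plus strand) had the smallest SD relative to its mean of the 10. It averaged 31.3 ± 5.93 CPM in KO AngII, 30.9 ± 20.1 in KO control, 32.4 ± 9.25 in WT AngII and 22.6 ± 7.19 CPM in WT control aortas (SD, n = 6 each). The groups overlapped in every comparison over both sexes. AngII changed Mrc1 by 0.03 ± 0.33 log2 in KO and 0.51 ± 0.33 log2 in WT. KO differed from WT by 0.44 ± 0.33 log2 in controls, and by -0.12 without KO control male replicate 2.

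Cd163 (ENSMUSG00000008845, chromosome 6, 124304656 to 124330527, plus strand) had opposite signs in the sexes under AngII. In AngII females it stood at 7.39, 24.4 and 18.1 CPM in KO and at 65.0, 15.2 and 27.6 CPM in WT. In AngII males it stood at 54.6, 56.7 and 26.2 CPM in KO and at 24.2, 20.8 and 21.9 CPM in WT. All 3 KO AngII males were above all 3 WT AngII males, which 5.71% of genes were, while the females overlapped. KO differed from WT by -1.12 ± 0.50 log2 in AngII females (edgeR, unadjusted p = 0.0305) and by 1.04 ± 0.49 log2 in AngII males (edgeR, unadjusted p = 0.0416). The female minus the male difference was -2.16 ± 0.70 log2 (edgeR, unadjusted p = 0.00401), but its adjusted p was 0.9999 over all genes. Over both sexes the value was -0.04 ± 0.34 log2. With AngII in KO males Cd163 changed by 1.18 ± 0.49 log2 (edgeR, unadjusted p = 0.022, adjusted p = 1.0), and by 1.19 without KO control male replicate 2.

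Lyz2, the lysozyme of macrophages, monocytes and neutrophils (ENSMUSG00000069516, chromosome 10, 117277331 to 117282321, minus strand), had the most counts of the 10, 3358 in all. It ranged over 22.7 to 88.8 CPM in KO AngII (median 28.0), 21.2 to 147 CPM in KO control (median 30.2), 21.9 to 44.8 CPM in WT AngII (median 34.6) and 17.2 to 26.9 CPM in WT control aortas (median 19.8). Of the WT AngII libraries, 5 of 6 exceeded every WT control, and 4 of 6 KO controls did so too. The change of KO from WT in controls was 1.10 ± 0.34 log2 (edgeR, unadjusted p = 0.00256, adjusted p = 0.200), and 0.39 without KO control male replicate 2. AngII in WT gave 0.68 ± 0.33 log2 (edgeR, unadjusted p = 0.0493, adjusted p = 0.743) and AngII in KO -0.18 ± 0.33 log2. The near-identical gene Lyz1 held 135 counts, and how reads shared by the pair were split is not given in the sources used here.

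Cd14, the co-receptor for bacterial lipopolysaccharide (ENSMUSG00000051439, chromosome 18), was the lowest of the 10 and held 0 counts in 4 libraries. It averaged 2.61 ± 2.46 CPM in KO AngII, 3.69 ± 3.06 in KO control, 1.35 ± 0.91 in WT AngII and 2.65 ± 2.31 CPM in WT control aortas (SD, n = 6 each). At up to 38 counts in a library the SE of its changes was 0.91 to 0.97 log2 in the 4 comparisons over both sexes, so a change of 1 log2 would be about as large as its own error. It was the single gene of the 10 that stood lower with AngII in WT, at -1.07 ± 0.95 log2 (edgeR, adjusted p = 0.971).

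The 3 C1q genes lie side by side on chromosome 4, all on the minus strand of mm10, in the order C1qb (ENSMUSG00000036905, 136880129 to 136886187), C1qc (ENSMUSG00000036896, 136889804 to 136893065) and C1qa (ENSMUSG00000036887, 136895917 to 136898803). They span 18675 bases with gaps of 3616 and 2851 bases. C1qa stood at 2.90, 9.23 and 2.33 CPM in KO AngII females and 19.1, 19.2 and 6.77 CPM in KO AngII males. KO control females had 0, 5.04 and 18.8 CPM and KO control males 6.84, 60.9 and 9.96 CPM. In WT, AngII libraries lay at 4.92 to 16.7 CPM (median 11.9) and controls at 3.30 to 7.10 CPM (median 4.68). WT AngII libraries were above every WT control in 5 of 6 cases, with a change of 1.18 ± 0.55 log2 (edgeR, unadjusted p = 0.0413, adjusted p = 0.722). The KO change with AngII was -0.77 ± 0.55 log2, and 0.06 without KO control male replicate 2.

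C1qb was the most abundant chain, at 3.96 to 34.6 CPM in KO AngII (median 15.8), 7.56 to 81.9 in KO control (median 13.6), 9.01 to 20.0 in WT AngII (median 14.1) and 8.06 to 14.5 CPM in WT control aortas (median 10.9). Those medians were close, and apart from KO control male replicate 2 at 81.9 CPM the next KO control lay at 15.9 CPM. Its changes were 0.32 ± 0.41 log2 with AngII in WT, -0.40 ± 0.41 with AngII in KO and 0.90 ± 0.41 for KO against WT in controls, the last being 0.03 without that library. C1qc averaged 9.33 ± 8.89 CPM in KO AngII, 11.8 ± 12.8 in KO control, 7.04 ± 3.43 in WT AngII and 3.59 ± 1.88 CPM in WT control aortas (SD, n = 6 each). KO differed from WT in C1qc by 1.69 ± 0.56 log2 in controls (edgeR, unadjusted p = 0.00529, adjusted p = 0.247) and by 0.80 without KO control male replicate 2.

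The balance of the chains within C1q was measured in each library. Per kb of exon, C1qb made up 53.8% of the 3 genes in the median library (30.3% to 84.7%) and was the largest in 21 of 24 libraries. C1qa made up a median of 33.2% (0% to 50.1%) and C1qc 12.6% (4.3% to 24.9%). In KO control male replicate 2, where all 3 were highest, the shares were 38.6% for C1qa, 49.6% for C1qb and 11.8% for C1qc, inside the range of the other libraries. By plain counts C1qb was 46.1% of 778 there (95% Wilson interval 42.7% to 49.7%). The largest C1qb share was in the library with the fewest C1q counts, KO control female replicate 1, with 33, of which C1qb was 75.8% (59.0% to 87.2%) and C1qa 0. These intervals cover counting error only.

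**Figure D3:**
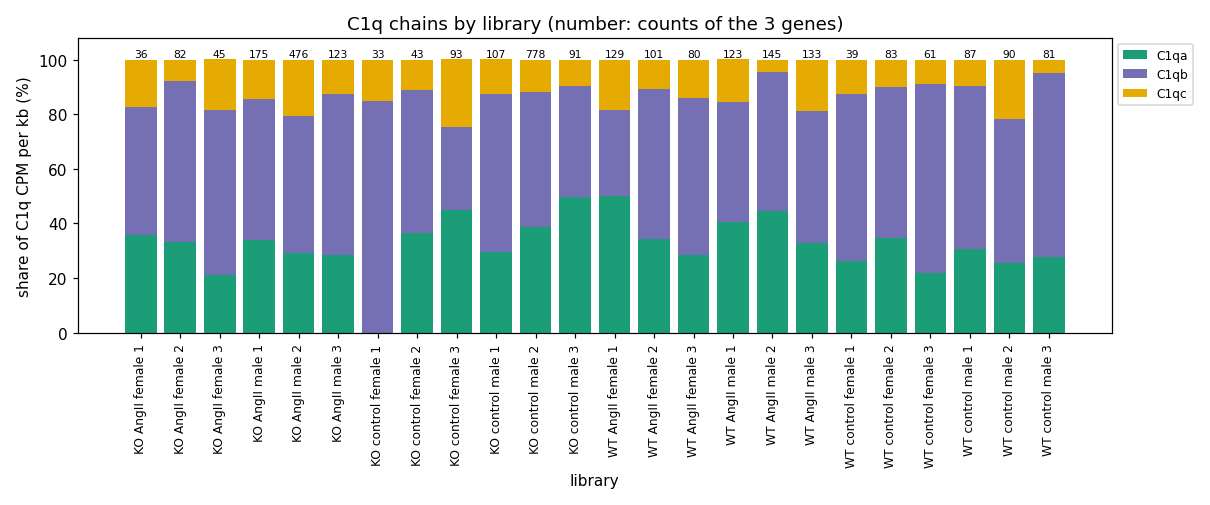
Stacked bars give the share (%) of C1qa, C1qb and C1qc in their summed CPM per kb in each of the 24 libraries, with the number of counts of the 3 genes above each bar. C1qb is the largest share in 21 libraries, and the most uneven bar, KO control female replicate 1, rests on 33 counts.

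With AngII in WT mice, 9 of the 10 genes stood higher, by a median of 0.65 log2, with Cd68 the furthest at 2.16 and Cd14 the 1 gene lower. Over all 16316 genes 48.8% stood higher and the median was -0.01 log2. None of the 10 was called by edgeR, where 0.208% of all genes were; 4 of the 10 (Cd68, Csf1r, Lyz2 and C1qa) had an unadjusted p under 0.05 and higher levels, as 3.47% of all genes did. DESeq2 called 1 of them, Cd68, and limma-voom 0. Within males 5 of the 10 (Cd68, Csf1r, Lyz2, C1qa and C1qb) had every AngII library above every control, as 8.1% of genes had, and within females 3 (Cd68, Mrc1 and C1qc), as 5.81% had. Other cell types were read beside them: 9 of 10 fibroblast markers stood higher, 3 of them called (Col1a1, Col3a1 and Postn), and their summed level was 4258 to 9620 CPM with AngII and 2558 to 3610 CPM in controls. All 9 endothelial markers tested stood lower, at 353.1 to 1118 CPM with AngII and 446.3 to 2089 CPM in controls. Their part in the macrophage values was not tested.

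With AngII in KO mice, 2 of the 10 stood higher and 8 lower, at a median of -0.47 log2, against 51.4% higher and a median of 0.01 log2 over all genes. Neither any of the 10 nor any other gene was called by edgeR (0% of all genes), while 1258 genes had an unadjusted p under 0.05 and DESeq2 called 20. None of the 10 had an unadjusted p under 0.05, and neither DESeq2 nor limma-voom called one. Within females every AngII library lay below every control for Adgre1 and Csf1r, 2 of the 10, as for 5.85% of genes. The direction over both sexes depended on KO control male replicate 2. Without it the median was 0.24 log2. Cd68 (0.48), Adgre1 (0.25), Csf1r (0.05), Lyz2 (0.50), C1qa (0.06), C1qb (0.45) and C1qc (0.21 log2) all turned to the higher side. Mrc1 stood at 0.56, Cd163 at 0.22 and Cd14 at -0.50 log2. These values average unlike sexes. In that fit 8 of the 10 stood lower in females (median -0.72 log2). In males 10 of the 10 stood higher (median 1.14 log2), 5 with an unadjusted p under 0.05 (edgeR). The female minus the male change was negative for 9 of the 10 (median -1.57 log2). No gene was called in females, in males or in their difference. With that library kept, the medians were -0.77 in females and -0.11 log2 in males. The female values are taken against KO control females, given above with high receptor-gene reads, low total counts and a low share of rRNA, snRNA and miscellaneous RNA. The part of these in the female values and in the difference of the sexes was not tested.

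Between KO and WT control mice, all 10 stood higher in KO, by a median of 1.24 log2, against 49.5% and -0.01 log2 over all genes. The highest values were those of Cd68 (1.90), C1qc (1.69), C1qa (1.57 ± 0.56), Adgre1 (1.48 ± 0.60) and Csf1r (1.37 log2), and the lowest were Mrc1 (0.44) and Cd163 (0.38 ± 0.35 log2). None was called by edgeR, where 0.221% of genes were. An unadjusted p under 0.05 with higher levels was reached by 7 of the 10 and by 5.5% of all genes. DESeq2 called 2 of them (Cd68 and Csf1r) and limma-voom 0. Without KO control male replicate 2 the median was 0.40 log2 and Mrc1 turned lower. C1qa then stood at 0.71, Adgre1 at 0.42, Cd163 at 0.32 and Cd14 at 0.088 log2. In females the median was 0.80 log2, and 0.69 in the fit without that library. In males it was 1.64 log2, and 0.096 in that fit. KO control females are the group given above with high receptor-gene reads, low total counts and a low share of rRNA, snRNA and miscellaneous RNA. The part of these in the female values was not tested. In each sex 3 of the 10 had every KO library above every WT library (Cd68, Adgre1 and Csf1r in females, Cd68, Csf1r and Lyz2 in males), as 9.33% and 6.09% of genes had. This comparison and that of AngII in WT share the 6 WT control libraries.

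**Figure D4:**
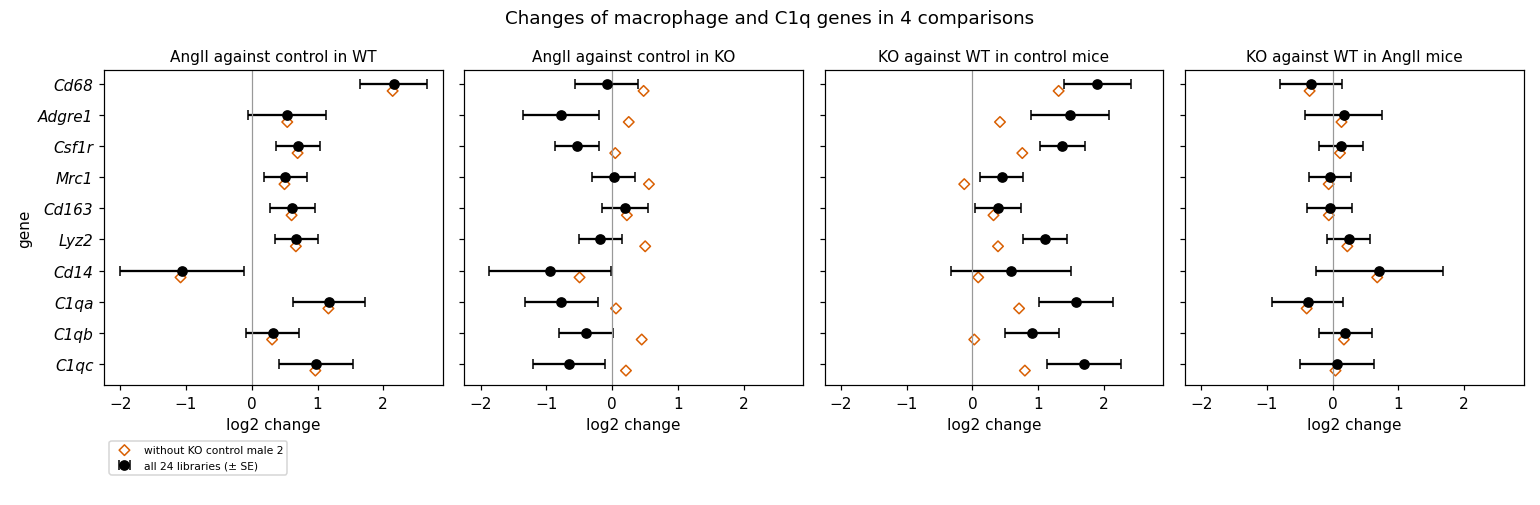
Black points are the log2 changes of each gene in 4 comparisons, with SE bars, from all 24 libraries; open orange diamonds are the same without KO control male replicate 2. In the comparisons that use KO controls most diamonds lie far from their points, and for AngII in KO 7 of them lie on the other side of 0.

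Between KO and WT mice under AngII, 6 of the 10 stood higher in KO and 4 lower, at a median of 0.09 log2, against 50.9% and 0.01 log2 over all genes. The extremes were Cd14 (0.71 ± 0.97) and C1qa (-0.38 ± 0.54 log2). None was called by edgeR, DESeq2 or limma-voom, none had an unadjusted p under 0.05, and 0.355% of all genes were called. Within males every KO library lay above every WT library for Cd163 and Cd14, 2 of the 10, as for 5.71% of genes, and within females every KO library lay below for C1qc, as for 4.82%. By sex the signs were unlike: in males 9 of the 10 stood higher (median 0.69 log2) and in females 9 stood lower (median -0.25 log2). Of the differences between the sexes only that of Cd163 had an unadjusted p under 0.05 and none was called (0% of genes were).

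The genotype by AngII interaction, the change with AngII in KO minus that in WT, was negative for 9 of the 10, at a median of -1.05 log2, against 0.04 log2 over all genes. Cd68 stood at -2.24 ± 0.70 (edgeR, unadjusted p = 0.0030), C1qa at -1.95 ± 0.78 (unadjusted p = 0.018), C1qc at -1.63 ± 0.78 (unadjusted p = 0.0448) and Csf1r at -1.24 ± 0.48 log2 (unadjusted p = 0.0145). Each of the 10 had an adjusted p of 0.9999, and edgeR called no gene at all (0%), with 657 at an unadjusted p under 0.05; DESeq2 and limma-voom also called 0. On the lower side 1.91% of all genes had an unadjusted p under 0.05. Without KO control male replicate 2 it was negative for 7 of the 10, at a median of -0.33 log2. Cd68 then stood at -1.66, C1qa at -1.11, C1qc at -0.76 and Csf1r at -0.65 log2.

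The 10 genes followed each other only in part. Over the 45 pairs the median Pearson r of log2 CPM across the 24 libraries was 0.43, and 0.35 without KO control male replicate 2. The closest pairs were Lyz2 with C1qc (0.82) and Csf1r with Lyz2 (0.80), and the furthest Adgre1 with C1qa (0.01). Against the mean of the 10 standardized genes, the most alike of 11299 other protein-coding genes were Ctss (r = 0.876), a lysosomal protease, Cd74 (0.81), the invariant chain of MHC class II, and Ucp2 (0.784), a mitochondrial carrier. Prg4 (0.766), a lubricating proteoglycan, Mpeg1 (0.76), a perforin-like protein of macrophages, Spi1 (0.744), which encodes PU.1, and complement C3 (0.74) followed. H2-DMb2 (0.739), which helps load MHC class II, and the inhibitory receptor Sirpa (0.732) came after them. These are descriptions over libraries that share depth and composition; without KO control male replicate 2 Ctss stood at 0.822 and C3 at 0.595.

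A list of 18 other macrophage genes, all tested, was read in the same comparisons. With AngII in WT 16 of 18 stood higher (median 0.72 log2), among them the scavenger receptor Msr1 at 2.66 ± 1.07 (edgeR, adjusted p = 0.582) and the lysosomal membrane protein Laptm5 at 1.18 ± 0.49 log2 (adjusted p = 0.606). With AngII in KO 3 of 18 did (median -0.67), and between KO and WT controls 17 of 18 (median 1.82 log2). Mpeg1 stood at 2.64 ± 0.60 there (edgeR, adjusted p = 0.0522), with 2.93 to 72.6 CPM in KO controls and 2.10 to 8.06 CPM in WT controls, which overlap. Under AngII KO exceeded WT in 13 of 18 (median 0.31), and the interaction was negative in 18 of 18 (median -1.42 log2). None of the 18 was called in any of the 5. Their summed level was 209 to 429.8 CPM in KO AngII, 191.3 to 631.4 in KO control, 260 to 343 in WT AngII and 186.6 to 258.2 CPM in WT control aortas, so the lowest WT AngII sum lay just above the highest WT control sum. The highest, 631.4 CPM, was KO control male replicate 2, where 11 of the 18 peaked. Without it the highest KO control sum was 309.8 CPM and Mpeg1 stood at 1.08 ± 0.49 log2 (edgeR, adjusted p = 0.555), with 2.93 to 29.9 CPM in the other KO controls. The list then had 16 of 18 higher in KO against WT controls (median 0.29), 15 of 18 with AngII in KO (0.42) and 14 of 18 negative in the interaction (-0.30 log2).

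Genes of resident macrophages of the outer artery wall formed another list. Of 10 (Lyve1, Folr2, F13a1 and others), 9 stood higher with AngII in WT (median 0.48 log2), 7 with AngII in KO (0.10), 7 in KO against WT controls (0.45) and 5 under AngII (-0.08 log2). F13a1, the A subunit of clotting factor XIII, stood at 0.83 ± 0.24 log2 with AngII in WT (edgeR, unadjusted p = 0.0016, adjusted p = 0.246), with 38.3 ± 7.22 CPM in WT AngII and 21.5 ± 4.65 CPM in WT control aortas (SD, n = 6 each). In KO control male replicate 2 only 1 of the 10 peaked, and without it the medians were 0.35 log2 with AngII in KO and 0.18 in KO against WT controls. Of 9 lipid-associated macrophage genes, 6 stood higher with AngII in WT (median 0.18), 8 with AngII in KO (0.38) and 3 in KO against WT controls (-0.17 log2). Without that library 8 stood higher with AngII in KO (0.55) and 1 in KO against WT controls (-0.32 log2). In that fit their interaction was positive for 9 of 9 (median 0.32 log2), with 0 called. Of 14 inflammatory monocyte genes 7 could be tested. In KO controls all 7 stood above WT controls (median 1.55 log2), with Il1b at 3.97 ± 1.49 (edgeR, adjusted p = 0.344) on 0 to 10.5 CPM in KO controls and 0 to 1.18 CPM in WT controls. In the fit without KO control male replicate 2, 4 of the 7 did (median 0.69 log2) and Il1b stood at 0.69 ± 2.09 log2.

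Partners of the 10 were measured as well. In the Csf1 axis 4 of 7 genes could be tested, and the ligand Csf1 changed by 0.35 ± 0.18 log2 with AngII in WT and -0.04 ± 0.18 log2 in KO (0.019 without KO control male replicate 2), neither called. For the rest of the classical complement pathway, all 8 genes stood higher in KO against WT controls (median 0.54 log2) and 6 of 8 with AngII in WT (median 0.52 log2). C5ar1, the receptor for the fragment C5a, stood at 2.65 ± 0.68 log2 in KO against WT controls (edgeR, adjusted p = 0.0926), with 8.68 ± 7.16 CPM in KO and 1.32 ± 0.46 CPM in WT controls (SD, n = 6 each). Without KO control male replicate 2, at 17.1 CPM, it stood at 1.70 ± 0.69 log2 (edgeR, adjusted p = 0.491), and 4 of the 8 stood higher (median 0.0071 log2). The inhibitor of C1, Serping1, stood at 0.57 ± 0.22 log2 with AngII in WT (edgeR, adjusted p = 0.542). Of proteins that bind C1q, 4 of 6 stood higher with AngII in WT (median 0.20) and 2 of 6 in KO against WT controls (median -0.07 log2; 1 of 6 and -0.16 without that library).

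Around Cd14, the Toll-like receptor list had 5 of 6 genes higher with AngII in WT (median 0.22) and 4 of 6 in KO against WT controls (median 0.16 log2). Ly96, which holds lipopolysaccharide on Tlr4, stood at 1.84 ± 0.67 log2 in KO against WT controls (edgeR, adjusted p = 0.321), and Tlr2 at 3.09 ± 1.21 log2 with AngII in KO (adjusted p = 0.537). Without KO control male replicate 2 these were 1.38 and 3.57 log2, and 3 of 6 stood higher in KO against WT controls (median -0.056 log2). Tlr2 was low, at 14.6 CPM in that library and 0 to 4.88 CPM in the other KO controls. No other library exceeded 9.90 CPM, so its change rests on values near 0. Beside Cd163, the haem-handling list had 3 of 5 higher with AngII in WT and 4 of 5 with AngII in KO, with and without that library; Hmox1, which breaks down haem, stood at 1.45 ± 0.57 log2 in WT (edgeR, adjusted p = 0.559). Of the lysosomal genes, with which Cd68 shares its compartment, 9 of 9 stood higher with AngII in WT (median 0.43), 8 of 9 with AngII in KO (0.26, and 0.48 without that library) and 0 of 9 in KO against WT under AngII (-0.16 log2). Ctsb, cathepsin B, stood at 0.43 ± 0.20 log2 with AngII in WT (edgeR, adjusted p = 0.743). No gene of these lists was called.

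A list of MHC class II and dendritic cell genes was the 1 list with calls in KO against WT controls. Of its 10 genes tested, 6 belong to class II presentation (Cd74, H2-Aa, H2-Ab1, H2-Eb1, H2-DMa and Ciita) and 4 mark dendritic cells (Cd209a, Flt3, Itgax and Zbtb46). In KO controls 9 of the 10 stood higher (median 2.56 log2). The calls were 2 of 10, where 0.221% of all genes were called: Cd74 rose by 2.64 ± 0.50 log2 (edgeR, adjusted p = 0.0100) and H2-Ab1, a class II beta chain, by 2.70 ± 0.58 log2 (edgeR, adjusted p = 0.0319). Neither was called without KO control male replicate 2, where Cd74 stood at 1.71 ± 0.40 (edgeR, adjusted p = 0.0731) and H2-Ab1 at 1.61 ± 0.48 log2 (edgeR, adjusted p = 0.277). The list median was then 1.53 log2, with 10 of 11 genes tested higher. In that library Cd74 stood at 805.7 and H2-Ab1 at 264.0 CPM. The other 5 KO controls had 27.5 to 348.1 CPM of Cd74 and 8.75 to 132.5 CPM of H2-Ab1, and the WT controls 17.4 to 74.5 CPM of Cd74 and 1.77 to 31.1 CPM of H2-Ab1. The summed list was 70.96 to 1287 CPM in KO controls, 70.96 to 593.0 CPM without that library, and 49.09 to 154.6 CPM in WT controls.

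Markers of other cells were read in KO against WT controls too. Of 5 lymphocyte genes tested 4 stood higher, with summed levels of 11.9 to 128.2 CPM in KO controls (up to 76.5 without KO control male replicate 2) and 8.69 to 87.2 CPM in WT controls; without that library 3 of 6 did. Markers of neutrophils and mast cells stood higher in 2 of 6, those of smooth muscle in 0 of 8 and those of adipocytes in 1 of 9. Without that library these were 3 of 7, 0 of 8 and 1 of 9, with 5 of 10 fibroblast and 2 of 9 endothelial markers higher. Fibroblast markers summed to 2588 to 5303 CPM in KO controls (up to 3730 without that library) and 2558 to 3610 CPM in WT controls. Class II genes are made by macrophages, dendritic cells and B cells alike, and the part of the other 2 cell types in the values of the 10 genes was not tested.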

How the data were processed

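The authors deposited a table of raw read counts per gene for 24 libraries, per the labels from total RNA depleted of ribosomal RNA, 1 mouse each. The submitters' processing notes list featureCounts 1.4.6, TopHat2 2.0.14, Bowtie2 2.2.5, cutadapt 1.8.1 and the genome build mm10; strandedness is not given in the sources used here. Columns were matched to mice through the labels. No 2 libraries of a group were copies (chi-square per degree of freedom 6.66 to 97.3).

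Genes kept by filterByExpr (minimum count 10, minimum total 15) were fitted with edgeR 4.0.16 (R 4.3.3, limma 3.58.1): TMM factors, a quasi-likelihood fit of all 24 libraries by group (8 groups), two-sided tests, and Benjamini-Hochberg adjustment over all 16316 genes, with a call at an adjusted p under 0.05. Comparisons over both sexes average the female and the male contrast. P-values measure the spread between mice. The script was tested on simulated data. CPM are counts scaled to a common library size after TMM, and CPM per kb uses exon lengths of GENCODE M21, which held 40254 of the 41128 identifiers. The prior count for log2 CPM was 2.

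The 10 genes and all lists were chosen with earlier results of these data known. Named are all 10 genes, Ppp3cb, the 10 protein-coding genes (mean log2 CPM 1 or more) most correlated with their mean (1 of which is not reported here), and of each list the called genes and otherwise up to 4 with the smallest unadjusted p; Il34, Ccr2, Xcr1, Cdh5, Cd3e, Cd3d and Cd3g, all in stretches with 0 counts, and the members of the MHC class II and dendritic cell list were named beside that rule. Alternatives were DESeq2 1.42.0, limma-voom with quality weights, RLE factors, protein-coding genes only, no count filter, 1 sex only, a replicate block, only the groups compared, and leaving out each library; the lists were read again without KO control male replicate 2 after the data were seen.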

Additional observations from a re-analysis of the deposited data

Results flagged for a closer look

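In each genotype and treatment, the highest or lowest of the 6 mice was set apart when its gap to the nearest other mouse, divided by the range, exceeded Dixon's 95% critical value. Of 40 groups tested 8 had such a mouse, where chance gives about 1 in 20 for independent, normally distributed values. The groups share mice, the genes are correlated, and linear CPM of both sexes were pooled. The count of 8 therefore cannot be set against that share. In 5 cases it was KO control male replicate 2: Cd68 at 28.29 CPM (next KO control 9.524), Csf1r at 81.23 (next 37.57), Lyz2 at 146.7 (next 41.01), C1qa at 60.92 (next 18.84) and C1qb at 81.91 CPM (next 15.92). In the other 3, Cd68 stood at 21.04 CPM in KO AngII female replicate 2 (next 11.14), Adgre1 at 18.85 CPM in KO AngII male replicate 2 (next 8.122) and Cd163 at 65.04 CPM in WT AngII female replicate 1 (next 27.56).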

How the results depend on the processing

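The medians of the 10 genes with AngII in WT stayed at 0.53 to 0.78 log2 in all fits that left out 1 library, and no gene of the 10 reversed there under any alternative. Those fits moved the median with AngII in KO over -0.65 to 0.24, KO against WT in controls over 0.40 to 1.4, and the interaction over -1.23 to -0.33 log2, and the values 0.24, 0.40 and -0.33 came without KO control male replicate 2. They called 5 to 86 genes for AngII in WT, 0 to 113 for AngII in KO, 13 to 399 for KO against WT in controls, 35 to 72 under AngII and 0 to 2 for the interaction, and 0 to 1 of the 10 with AngII in WT and in KO against WT controls. The low and high counts came without WT AngII female replicate 3 (5) and WT AngII female replicate 1 (86), without KO control female replicate 2 (113, 399 and 2), without WT control female replicate 2 (13) and without WT AngII male replicate 1 (35).

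Genes called with AngII in WT (34 as reported) were 80 with DESeq2, 329 with limma-voom, 134 without the count filter, 0 in females only and 5 in males only. With AngII in KO (0) they were 20 with DESeq2, 85 without the filter and 1 with only the groups compared. For KO against WT in controls (36) they were 178 with DESeq2, 260 without the filter, 94 in females only, 0 in males only, 21 with only the groups compared and 23 without both KO male libraries numbered 2, an alternative chosen after seeing the data. Under AngII (58) they were 146 with DESeq2, 200 with limma-voom, 182 without the filter and 0 in either sex alone, and for the interaction (0) 12 without the filter. Of the 10 genes, DESeq2 and the fit without the filter each called 1 with AngII in WT; in KO against WT controls DESeq2 called 2 and the fit without the filter 4 (Cd68, Csf1r, Lyz2 and C1qa). The median in KO against WT controls was 0.41 log2 without both KO male libraries, and that under AngII 0.70 in males only. Of the 10 most alike genes 4 remained with residuals from group means and 6 with Spearman's rho.

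Some values changed sign, all given in log2. With AngII in KO, Mrc1 stood at -0.052 with DESeq2, -0.047 with RLE factors and -0.077 in males only. Limma-voom gave Cd68 0.047, Lyz2 0.020 and C1qb 0.029; females only gave Cd68 0.43 and Cd163 -0.83; males only gave Adgre1 0.053, Cd14 0.24 and C1qc 0.077. Without both KO male libraries Cd68 was 0.57, Csf1r 0.0051, Lyz2 0.43 and C1qb 0.33 there, and Mrc1 -0.12 in KO against WT controls. In KO against WT under AngII, Mrc1 was 0.012 with DESeq2, 0.012 with RLE factors and 0.12 in males only. Limma-voom gave Adgre1 -0.14, Cd163 0.30 and Cd14 -0.079. Females only gave Adgre1 -0.15, Csf1r -0.48, Lyz2 -0.25, C1qb -0.20 and C1qc -0.80, and males only Cd163 1.06 and C1qa 0.16. Without both KO male libraries Adgre1 was -0.68 and C1qc -0.24. In the interaction limma-voom gave Cd163 0.031 and Cd14 -0.78, males only Cd163 0.93, and the fit without both KO male libraries Mrc1 0.032 and C1qb 0.022. The cause of these changes was not tested.

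Leaving out 1 library reversed 20 gene values in some fit. With AngII in KO the ranges were Adgre1 -1.60 to 0.25, C1qa -1.18 to 0.059, C1qb -0.75 to 0.45, C1qc -0.94 to 0.21, Cd68 -0.38 to 0.48, Csf1r -0.70 to 0.048, Lyz2 -0.36 to 0.50 and Mrc1 -0.18 to 0.56. In KO against WT controls they were Cd163 -0.014 to 0.51 and Mrc1 -0.12 to 0.64. Under AngII they were Adgre1 -0.67 to 0.56, C1qb -0.20 to 0.37, C1qc -0.23 to 0.26, Cd14 -1.62 to 1.07, Cd163 -0.25 to 0.31, Csf1r -0.039 to 0.32 and Mrc1 -0.17 to 0.079, and in the interaction C1qb -1.06 to 0.14, Cd14 -2.19 to 0.59 and Mrc1 -0.69 to 0.063.

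No pairing by replicate number was seen: deviations of same-numbered libraries correlated at a mean of 0.0041 (-0.10 to 0.13) and those of differently numbered ones at -0.0018 (-0.119 to 0.105). Of the 24 libraries 10 correlated best with their own number. A correlation over all genes can miss pairing that touches few of them, so pairing was not excluded. A fit with the replicate number as a block called none of the 10 genes and put Adgre1 at -0.0067 and C1qc at -0.050 in KO against WT under AngII and Cd14 at -0.046 in the interaction. Levels on protein-coding counts were 1.68 to 1.92 times those reported. Depth limits Cd14 most, at 0 to 38 counts a library, and 6 of 240 values were 0.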
